A study of Yarrowia lipolytica with 8 samples.

Results

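The genes described here build, remodel or glycosylate the cell wall of the oleaginous yeast Yarrowia lipolytica. They were chosen from the annotation column of the expression tables: a gene was taken when the name of its first KEGG Orthology (KO, a catalogue of gene functions) hit contained chitin, glucan, mannosyltransferase or cell wall. The rule found 59 of the 6394 genes listed, of which 3991 had a KO hit. RNA was sequenced from strain ACA DC 50109 grown in batch fermentors on a mixture of glucose and glycerol, always later than nitrogen limitation. The comparisons ask what changed once glycerol was used up, and whether the oxygen supply altered that change.

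The 4 groups held 2 libraries each. The pO2-uncontrolled culture, in which dissolved oxygen was not held at a set level, was sampled after glycerol limitation (pO2-UN-3) and before it (pO2-UN-2). The pO2-controlled culture, in which dissolved oxygen was held at 50% of air saturation, was sampled after glycerol limitation (pO2-2) and before it (pO2-1). The labels give the culture but not the phase, which was taken from the study's headings of its tables, and for pO2-UN-2 by exclusion. The study calls the libraries of a group biological replicates, but the labels do not say whether they were separate fermentations, so the p-values measure only the spread between these libraries. Oxygen control cannot be told apart from any other difference between the cultures or from the separate table each was deposited in. The reads of ACA DC 50109 were mapped to the genome of another strain, CLIB122, so a gene that differs between the strains may read low in every library.

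A yeast cell wall is a mesh of beta-glucan and chitin covered by mannoproteins. Beta-glucan and chitin are made at the plasma membrane by synthases and are opened and rejoined by glucanases, glucosidases and chitinases during growth and budding. Mannose reaches secreted proteins by several routes: in Saccharomyces cerevisiae the Pmt proteins attach it to serine and threonine in the endoplasmic reticulum using dolichol phosphate mannose, the Alg enzymes build the lipid-linked core of N-glycans, and Golgi enzymes extend both kinds of chain.

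The 59 genes fell into 10 classes by KO number. In 32 of them the first hit was the gene's own Y. lipolytica entry, and in 27 it was another gene or another organism. In 11 genes the hit was weak (e-value above 1e-20), and 8 of these were among the 11 genes annotated as chitinase, so that class is the least certain. The rule also took 1 gene outside the wall, the glycogen branching enzyme, because its KO name contains glucan. A gene ontology term for the cell wall was carried by 7 of the 59, all of them glucan hydrolases, and only 1 pair of the genes were neighbours on a chromosome (YALI0_E34133g and YALI0_E34155g, 1687 bases apart on chromosome E).

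Levels are given in FPKM, fragments counted for a transcript divided by its length and by the size of the library, as deposited. The spacing of the low FPKM values corresponds to 5110000 to 5370000 fragments counted per library. Together the 59 genes made up 0.758% and 0.714% of the summed FPKM in the uncontrolled culture after limitation, 0.671% and 0.785% before it, 0.857% and 0.859% in the controlled culture after limitation, and 1.12% and 1.13% before it. FPKM are shares of a library, so less RNA of a gene per cell, fewer cells that express it and more RNA from other genes cannot be told apart. The replicates of the uncontrolled culture lay farther apart than those of the controlled culture: the median absolute log2 difference between replicates over 52 of the genes was 0.23 after limitation and 0.21 before it in the uncontrolled culture, against 0.052 and 0.047 in the controlled culture, and all genes showed the same gap.

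**Figure D1:**
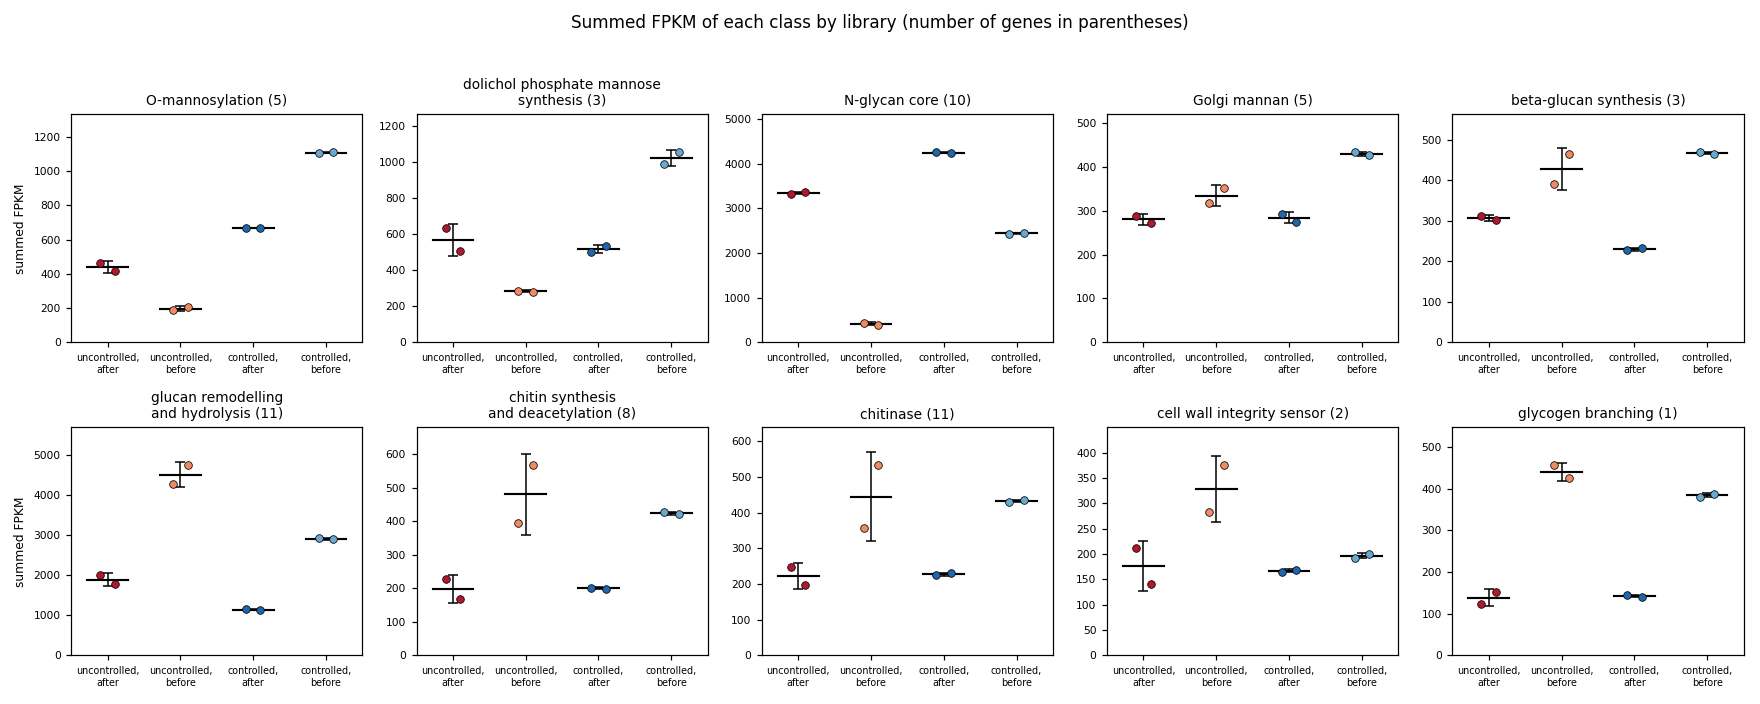
Summed FPKM of the genes of each class in each of the 8 libraries. Each panel is 1 class with its own axis from 0; points are libraries, horizontal lines the mean and bars the SD of the 2 libraries; after limitation is drawn left of before. O-mannosylation sums lie between 187 and 206 FPKM in the uncontrolled culture before limitation and between 1107 and 1109 FPKM in the controlled culture before limitation.

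Changes were tested with limma on log2(FPKM + 1), with Benjamini-Hochberg adjustment over all genes that reached an FPKM of 1 in 2 libraries. A gene is said to have risen or fallen when its adjusted p was under 0.05, and is called when its log2 fold change was also at least 2 in either direction. Counts of genes higher or lower between the cultures follow the same rule. Fold changes on this scale understate the change of low genes. In the pO2-uncontrolled culture 24 of 55 genes tested rose after limitation (48.9% of all genes tested rose) and 16 fell (21.5% of all genes), with 4 called higher and 3 called lower (11.3% and 5.01% of all genes). In the pO2-controlled culture 16 of 57 rose (45.6% of all genes) and 34 fell (36.0% of all genes), with 2 called higher and 7 called lower (9.52% and 4.29% of all genes). The median log2 fold change of those tested was 0.31 in the uncontrolled culture, against 0.49 over all genes, and -0.58 in the controlled culture, against 0.13 over all genes. The shares of all genes in each comparison are also the background for the counts by class and pathway list below.

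Between the cultures the larger differences stood before limitation. There 32 of 56 genes were lower in the uncontrolled culture (47.2% of all genes) and 11 were higher (30.9%), with 11 called lower and 1 called higher (14.4% and 9.18% of all genes). The median was -0.75, against -0.31 over all genes. After limitation 18 of 56 were lower in the uncontrolled culture (28.5% of all genes) and 11 were higher (21.5%), with 1 called higher (1.34% of all genes) and the median at -0.12, against -0.10 over all genes. In all genes 1.82% were called lower there. This count of 29 genes past the test was not stable when a library was left out. It fell without either pO2-2 library and rose without either pO2-UN-3 library. Such a fit takes its residual spread only from the group left whole. The pO2-2 replicates lay closer together than those of pO2-UN-3 (median absolute log2 difference 0.052 against 0.23 over 52 of the genes). The difference of the limitation response was taken as uncontrolled minus controlled. It was positive and past the test in 27 of 57 genes, and negative and past it in 7 (38.1% and 29.1% of all genes). Of these, 12 and 1 were called (11.8% and 6.85% of all genes). The median was 0.64, against 0.20 over all genes. For this difference and between the cultures, each fit used 1 spread per gene for both cultures, although the uncontrolled replicates lay farther apart. The SE of the difference can thus lie below that of the uncontrolled response alone, as for YALI0_F25993g.

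The balance of rising and falling genes depended on how the libraries were scaled. Median-of-ratios scaling of the libraries moved the median of all genes by -0.37 in the uncontrolled response, by -0.15 in the controlled response, by 0.35 and 0.13 in the comparisons of the cultures before and after limitation, and by -0.23 in the difference of the responses. After that scaling 14 of the genes rose and 21 fell in the uncontrolled culture (2199 and 1904 of all genes). In the controlled culture 14 rose and 36 fell (2460 and 2570 of all genes). Before limitation 16 were higher and 26 lower in the uncontrolled culture (2435 and 2281 of all genes). After limitation 12 were higher and 13 lower (1661 and 1366 of all genes). The response differed upward in 25 and downward in 10 (1987 and 2186 of all genes). The scaled median was -0.06 in the uncontrolled response, against 0.12 over all genes, and -0.72 in the controlled response, against -0.02. These counts of all genes are the background for the scaled counts by class and pathway list below. The comparisons share libraries, so their values for a gene are not independent of each other.

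**Figure D2:**
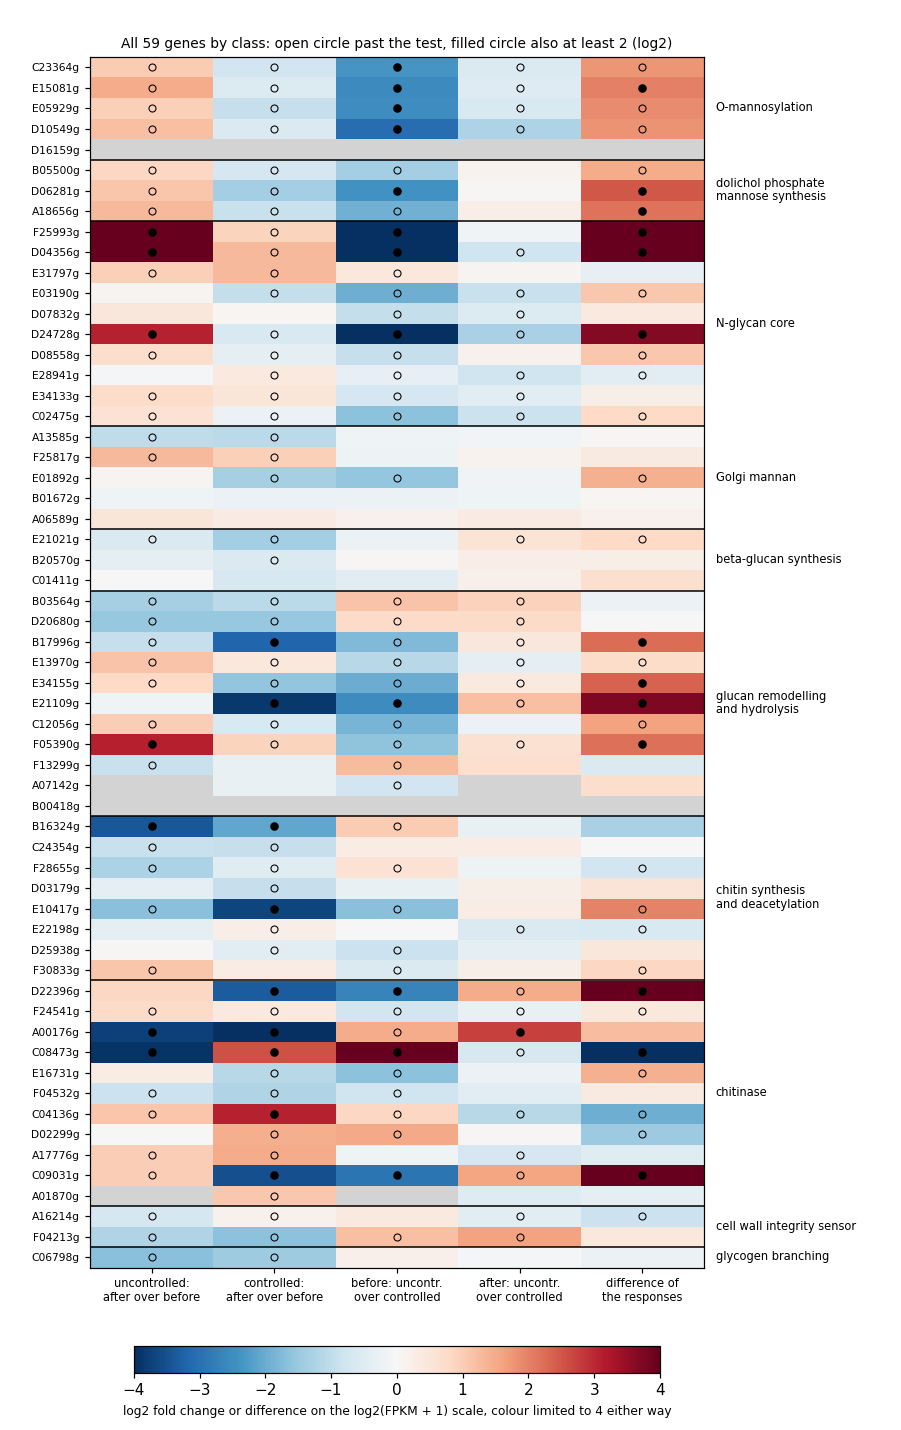
Log2 fold changes of the 59 genes (rows, grouped by class and ordered by mean FPKM; tags without the prefix YALI0_) in the 5 comparisons (columns). Red is higher and blue lower in the group named first, colour stops at 4 in either direction, and grey cells were not tested. Open circles mark adjusted p under 0.05 and filled circles also a log2 value of at least 2; all 4 tested O-mannosylation genes carry a filled blue cell in the comparison of the cultures before limitation.

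The tested genes for protein O-mannosylation all moved alike. They carried the KO name dolichyl-phosphate-mannose-protein mannosyltransferase, the Pmt family that starts O-glycans in S. cerevisiae. Of the 5 genes, 4 were tested, and all 4 rose after limitation in the uncontrolled culture (log2 0.95 to 1.48, 48.9% of all genes rose). All 4 fell in the controlled culture (log2 -0.55 to -0.94, 36.0% of all genes fell). Before limitation all 4 were called lower in the uncontrolled culture (log2 -2.36 to -3.03, 14.4% of all genes were called lower). The class sum was 440 ± 35.2 FPKM in the uncontrolled culture after limitation and 196 ± 13.2 before it, against 670 ± 0.71 and 1108 ± 1.84 in the controlled culture (SD, n = 2 each).

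YALI0_C23364g was the most abundant of them, with 191 and 163 FPKM after limitation and 89.5 and 85.4 before it in the uncontrolled culture, and 263 and 270 after and 453 and 451 before it in the controlled culture. No replicates of these 4 groups overlapped, and the level before limitation was the lowest of the 4 groups in one culture and the highest in the other. Its log2 change was 1.00 ± 0.15 (SE) in the uncontrolled culture (adjusted p = 0.00076) and -0.76 ± 0.03 in the controlled culture (adjusted p = 2.3e-06). Before limitation the uncontrolled culture held 0.194 times the level of the controlled culture (log2 -2.36 ± 0.08, adjusted p = 3.4e-05).

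YALI0_E15081g had 159 and 145 FPKM after limitation and 52.6 and 55.4 before it in the uncontrolled culture, and 223 and 215 after and 324 and 319 before it in the controlled culture. It was the only Pmt gene whose response difference was called (log2 2.03 ± 0.12, adjusted p = 3.8e-06), although the differences of the other 3 tested, at 1.76, 1.80 and 1.89, lay close to it. YALI0_E05929g had 96.4 and 84.2 FPKM after and 37.5 and 56.7 before limitation in the uncontrolled culture, and 136 and 138 after and 258 and 268 before it in the controlled culture. Its rise in the uncontrolled culture (log2 0.95 ± 0.22, adjusted p = 0.0065) did not pass under median-of-ratios scaling (log2 0.57, adjusted p = 0.074).

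YALI0_D10549g, whose first hit was a gene of another fungus, was the least abundant Pmt gene tested and had the largest deficit. It measured 17.2 and 21.9 FPKM after limitation and 7.38 and 8.23 before it in the uncontrolled culture, and 47.9 and 46.3 after and 71.7 and 70.2 before it in the controlled culture. Before limitation the uncontrolled culture had 0.110 times the controlled level (log2 -3.03 ± 0.12, adjusted p = 4.6e-05). Under median-of-ratios scaling YALI0_C23364g fell just short of the fold threshold before limitation (log2 -1.99), which left 3 of the 4 called. After limitation all 4 were still lower in the uncontrolled culture (log2 -0.52 to -1.24), but 3 of them, YALI0_C23364g, YALI0_E05929g and YALI0_E15081g, missed the test when one of the pO2-2 libraries was left out (largest adjusted p = 0.069). The fifth gene, YALI0_D16159g, spans 261 bases, hit YALI0_E15081g weakly and did not exceed 0.93 FPKM in any library, which was too low to test.

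**Figure D3:**
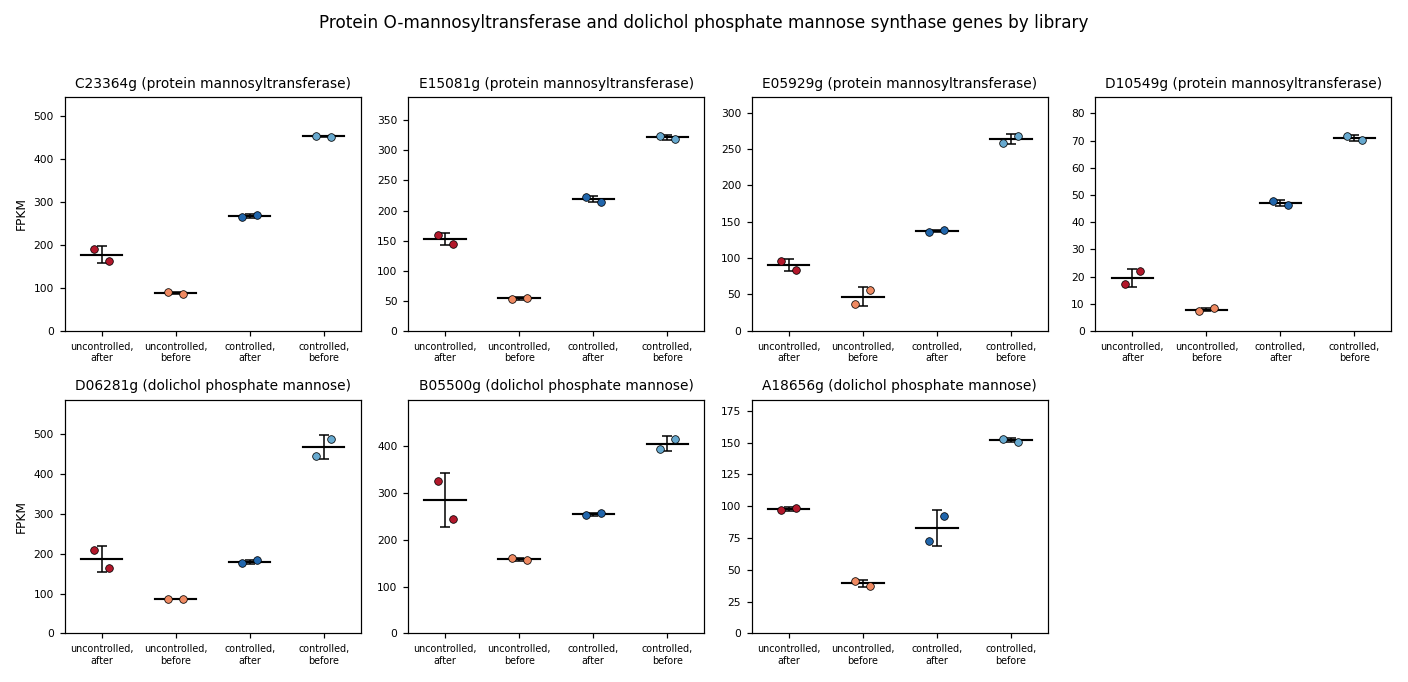
FPKM of the 4 tested Pmt genes (top row) and the 3 dolichol phosphate mannose synthase genes (bottom row) in each library; tags are without the prefix YALI0_. Points are libraries, lines the mean and bars the SD of 2 libraries, and each axis starts at 0. In every panel the uncontrolled culture before limitation is lowest and the controlled culture before limitation is highest, as for YALI0_C23364g with means of 87.5 and 452 FPKM.

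The 3 genes that make dolichol phosphate mannose, the mannose donor of the Pmt enzymes and of the later Alg steps, moved as the Pmt genes did. All 3 rose after limitation in the uncontrolled culture and all 3 fell in the controlled culture, and their summed level was 569 ± 89.9 FPKM after and 283 ± 6.01 before limitation in the uncontrolled culture, against 517 ± 22.7 and 1024 ± 44.3 in the controlled culture (SD, n = 2 each). YALI0_D06281g, the catalytic synthase (DPM1 in S. cerevisiae), had 210 and 163 FPKM after and 86.3 and 85.7 before limitation in the uncontrolled culture, and 176 and 184 after and 447 and 489 before it in the controlled culture. After limitation the cultures overlapped, and before limitation they were far apart (log2 -2.43 ± 0.09, adjusted p = 3.9e-05). Its response difference was log2 2.47 ± 0.17 (adjusted p = 8.8e-06).

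The other 2 genes encode the small subunits known from mammals. YALI0_B05500g, the regulatory subunit DPM2, had 326 and 243 FPKM after and 160 and 156 before limitation in the uncontrolled culture, and 252 and 257 after and 393 and 415 before it in the controlled culture. YALI0_A18656g, the stabilising subunit DPM3, had 96.8 and 98.9 FPKM after and 41.4 and 37.5 before limitation in the uncontrolled culture, and 72.8 and 92.6 after and 153 and 151 before it in the controlled culture. Both were lower in the uncontrolled culture before limitation (log2 -1.35 and -1.92), and the difference of the responses was 1.50 ± 0.18 for YALI0_B05500g and 2.17 ± 0.18 for YALI0_A18656g. The rise of YALI0_B05500g in the uncontrolled culture did not pass under median-of-ratios scaling (adjusted p = 0.072). After limitation the 3 genes stood log2 0.04 to 0.25 above the controlled culture in the uncontrolled one, and none of these differences passed the test (adjusted p = 0.17 to 0.81, unadjusted p = 0.12 to 0.76).

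Genes that supply activated sugars were counted beside them. Of 9 genes that make the nucleotide sugars of mannan, chitin and glucan, 2 rose and 4 fell in the uncontrolled culture (1 and 5 under median-of-ratios scaling), and 8 fell in the controlled culture. YALI0_B18348g, mannose-6-phosphate isomerase, which draws mannose from glycolysis, had 134 and 139 FPKM after and 34.2 and 37.6 before limitation in the uncontrolled culture, and 163 and 162 after and 370 and 378 before it in the controlled culture. It had the largest response difference of the list (log2 3.10 ± 0.12, adjusted p = 6.3e-07), and YALI0_D13112g, phosphomannomutase, had one of 2.06 ± 0.20 (adjusted p = 4.9e-05). YALI0_C06490g, the most abundant of the list and a mannose-1-phosphate guanylyltransferase that makes GDP-mannose, did not share the deficit: it had 1132 and 1237 FPKM in the uncontrolled and 1097 and 1144 in the controlled culture before limitation, and fell after limitation in both (log2 -1.61 and -2.44). The gene for UDP-glucose, the donor of glucan synthesis (YALI0_A02310g, UTP-glucose-1-phosphate uridylyltransferase), likewise fell in both (log2 -2.09 and -1.22).

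The oligosaccharyltransferase, which moves the finished N-glycan core onto protein, was covered by 6 genes. In the uncontrolled culture 5 of 6 rose after limitation (4 under median-of-ratios scaling), and in the controlled culture 4 of 6 fell (6 under that scaling). Of all genes 48.9% (3023) rose in the uncontrolled and 36.0% (2239) fell in the controlled culture, against 2199 and 2570 under that scaling. The response difference was positive and past the test in 6 of 6, with a median of 1.09, smaller than the median of 1.84 of the Pmt genes; the 2 medians were not tested against each other. YALI0_F14795g, the alpha subunit (ribophorin I of mammals), had 156 and 136 FPKM after and 66.3 and 62.7 before limitation in the uncontrolled culture, and 150 and 145 after and 223 and 215 before it in the controlled culture.

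The N-glycan core class held both the largest differences of all 59 genes and some of the smallest. Of its 10 genes, 7 rose in the uncontrolled culture after limitation with 3 called (48.9% and 11.3% of all genes). Under median-of-ratios scaling 3 rose and 1 fell there (2199 and 1904 of all genes). In the controlled culture 5 rose and 4 fell (45.6% and 36.0% of all genes). Before limitation 9 of 10 were lower in the uncontrolled culture (47.2% of all genes), and 7 were under median-of-ratios scaling (2281 of all genes). The extremes came from genes that carry the KO number K03846, the ALG9 mannosyltransferase, but are unlike the gene of that name: 5 genes carried it, and only YALI0_E28941g hit its own Y. lipolytica entry. The other 4 hit genes of other fungi with e-values of 1e-107 to 4e-24 and span 1215 to 1254 bases, against 1686 for YALI0_E28941g, so their role is not certain.

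YALI0_F25993g was nearly silent in 1 group. It had 1668 and 1960 FPKM after limitation and 1.51 and 1.49 before it in the uncontrolled culture, against 1969 and 1978 after and 1076 and 1068 before it in the controlled culture. It was the most abundant of the 59 genes in the 4 libraries taken after limitation. The rise in the uncontrolled culture was log2 9.50 ± 0.16 (adjusted p = 1.9e-07) and that in the controlled culture 0.88 ± 0.02 (adjusted p = 2.6e-07), and the difference of the responses was 8.62 ± 0.13 (adjusted p = 7.7e-09).

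YALI0_D04356g followed the same course, with 858 and 788 FPKM after and 4.91 and 3.88 before limitation in the uncontrolled culture, and 1424 and 1409 after and 564 and 581 before it in the controlled culture. Its response difference was 5.96 ± 0.15 (adjusted p = 9.1e-08). YALI0_D24728g had 36.9 and 47.8 FPKM after and 3.90 and 4.34 before limitation in the uncontrolled culture, but 106 and 103 after and 163 and 157 before it in the controlled culture, so that it rose in one culture (log2 3.07 ± 0.23) and fell in the other (log2 -0.61 ± 0.04). YALI0_D07832g, the fourth of these, had 68.8 and 67.5 FPKM after and 56.0 and 43.2 before limitation in the uncontrolled culture, and did not pass the test in either culture (adjusted p = 0.053 and 0.51).

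After limitation in the uncontrolled culture the 6 genes that hit their own entry changed less than YALI0_F25993g, YALI0_D04356g and YALI0_D24728g. In the controlled culture YALI0_E31797g and YALI0_E03190g changed more than YALI0_F25993g and YALI0_D24728g. YALI0_E28941g, the ALG9 gene itself, had 44.1 and 40.2 FPKM after and 44.3 and 43.7 before limitation in the uncontrolled culture, and rose in the controlled culture (log2 0.40 ± 0.06). YALI0_E31797g, the ALG2 enzyme that adds early mannoses of the core, rose in both cultures (log2 0.96 and 1.28) and was the only core gene higher in the uncontrolled culture before limitation (log2 0.43 ± 0.10, adjusted p = 0.016). YALI0_E03190g, the ALG3 enzyme that uses dolichol phosphate mannose, had 42.2 and 50.8 FPKM after and 48.0 and 38.6 before limitation in the uncontrolled culture, and 87.2 and 86.4 after and 176 and 166 before it in the controlled culture, where it fell (log2 -0.97 ± 0.05). YALI0_D08558g (ALG11) and YALI0_C02475g (ALG12) rose in the uncontrolled culture and fell in the controlled culture, and YALI0_E34133g (ALG1) rose in both. Under median-of-ratios scaling none of YALI0_E31797g, YALI0_D08558g, YALI0_C02475g and YALI0_E34133g passed the limma test in the uncontrolled culture (log2 0.57, 0.33, 0.20 and 0.35, smallest adjusted p = 0.1), and 3 of the N-glycan genes rose there. Without the 2 most abundant genes, YALI0_F25993g and YALI0_D04356g, the class summed to 804 and 614 FPKM after and 433 and 389 before limitation in the uncontrolled culture, and to 867 and 859 after and 790 and 806 before it in the controlled culture.

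Of the 5 Golgi mannosyltransferases, which lengthen mannan chains, 1 rose and 1 fell in the uncontrolled culture, and 1 rose and 2 fell in the controlled culture. Their sum was 281 ± 11.7 FPKM after and 335 ± 23.8 before limitation in the uncontrolled culture, and 284 ± 12.6 after and 430 ± 5.09 before it in the controlled culture (SD, n = 2 each). YALI0_A13585g, the most abundant, had 113 and 108 FPKM after and 216 and 237 before limitation in the uncontrolled culture, and 123 and 118 after and 253 and 255 before it in the controlled culture. It fell by nearly the same amount in both (log2 -1.03 ± 0.14 and -1.07 ± 0.04), with a response difference of 0.05 ± 0.12 (adjusted p = 0.75).

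YALI0_F25817g, of the KRE2 family, went the other way, with 101 and 92.6 FPKM after and 33.9 and 43.7 before limitation in the uncontrolled culture, and 87.8 and 87.1 after and 44.5 and 44.1 before it in the controlled culture. It rose in both (log2 1.31 ± 0.18 and 0.97 ± 0.05). YALI0_E01892g, of the same family, fell in the controlled culture (log2 -1.31 ± 0.08) and did not pass the test in the uncontrolled culture (log2 0.10), and its response difference was 1.41 ± 0.16 (adjusted p = 0.00011). Of 6 mannan polymerase genes, which build the mannan backbone in S. cerevisiae, 6 fell in the controlled culture (log2 -0.21 to -0.72) and 1 rose in the uncontrolled culture (1 rose and 3 fell there under median-of-ratios scaling). The gene that rose, YALI0_E02222g, an ANP1 subunit, had 37.7 and 34.5 FPKM after and 9.28 and 6.81 before limitation in the uncontrolled culture, and 31.5 and 29.8 after and 53.9 and 48.9 before it in the controlled culture.

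The 3 genes with the KO name of 1,3-beta-glucan synthase, the Fks enzyme that makes the main wall polymer, either fell after limitation or did not pass the test. In the uncontrolled culture 1 fell, and in the controlled culture 2 fell. YALI0_E21021g had 184 and 159 FPKM after and 229 and 280 before limitation in the uncontrolled culture, and 117 and 116 after and 300 and 297 before it in the controlled culture. It fell in both (log2 -0.57 ± 0.16, adjusted p = 0.014, and -1.35 ± 0.03, adjusted p = 4.3e-07), and the fall was larger under oxygen control (response difference 0.78 ± 0.16, adjusted p = 0.0032). Its fall in the uncontrolled culture missed the test without pO2-UN-3 replicate 2 (adjusted p = 0.11) and without pO2-UN-2 replicate 2 (adjusted p = 0.06).

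YALI0_B20570g, a shorter gene of 2142 bases that hit another yeast, had 128 and 143 FPKM after and 160 and 185 before limitation in the uncontrolled culture, and 110 and 116 after and 167 and 168 before it in the controlled culture. It fell in the controlled culture (log2 -0.57 ± 0.04), and in the uncontrolled culture its log2 value was -0.35 ± 0.15 (adjusted p = 0.07). That fall passed under median-of-ratios scaling (log2 -0.73, adjusted p = 0.0052), in the fit of all 8 libraries (adjusted p = 0.014) and without pO2-UN-2 replicate 1 (adjusted p = 0.046). YALI0_C01411g, the other full-length synthase, stayed between 0.53 and 1.84 FPKM in the 8 libraries and did not pass any of the 5 tests. Its log2 value in the controlled response passed under median-of-ratios scaling (-0.69, adjusted p = 0.042) and with no filter on low values (-0.64, adjusted p = 0.037).

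Genes that cut or remodel glucan made up the most abundant class before limitation in both cultures. Its sum was 1886 ± 166 FPKM after and 4505 ± 317 before limitation in the uncontrolled culture, and 1138 ± 16.1 after and 2904 ± 19.2 before it in the controlled culture (SD, n = 2 each). Most of this came from a pair of glucan 1,3-beta-glucosidases, enzymes of the exo-glucanase kind that S. cerevisiae secretes into its wall. YALI0_B03564g had 989 and 785 FPKM after and 2071 and 2330 before limitation in the uncontrolled culture, and 477 and 458 after and 984 and 1002 before it in the controlled culture. YALI0_D20680g had 750 and 714 FPKM after and 1994 and 2239 before limitation in the uncontrolled culture, and 438 and 431 after and 1273 and 1237 before it in the controlled culture.

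Both glucosidases fell in both cultures, YALI0_B03564g by log2 -1.32 ± 0.16 and -1.09 ± 0.03 and YALI0_D20680g by -1.53 ± 0.13 and -1.53 ± 0.03. Both were also higher in the uncontrolled culture in either phase (log2 0.75 to 1.14), opposite in direction to the Pmt genes. For YALI0_D20680g the response difference was -0.001 ± 0.11 (adjusted p = 0.99), an estimate whose sign depended on which library was left out.

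The remaining glucan genes differed from this pair and from each other. YALI0_F05390g, another glucosidase, had 54.8 and 61.4 FPKM after and 6.27 and 5.41 before limitation in the uncontrolled culture, and 39.2 and 36.7 after and 17.9 and 21.9 before it in the controlled culture; it rose in both (log2 3.11 ± 0.21 and 0.91 ± 0.12). YALI0_E21109g had 17.6 and 18.9 FPKM after and 24.3 and 16.5 before limitation in the uncontrolled culture, and 7.75 and 6.89 after and 118 and 123 before it in the controlled culture, where it fell by log2 -3.87 ± 0.09 (adjusted p = 2.4e-07). YALI0_E34155g, which lies next to the ALG1 gene, rose in the uncontrolled culture (log2 0.80 ± 0.18) and fell in the controlled culture (log2 -1.57 ± 0.06), while its neighbour rose in both. The rises of both neighbours in the uncontrolled culture missed the test under median-of-ratios scaling (log2 0.42, adjusted p = 0.061 for YALI0_E34155g, and log2 0.35, adjusted p = 0.14 for YALI0_E34133g).

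Among the endo-1,3(4)-beta-glucanases, YALI0_B17996g had 44.8 and 39.9 FPKM after and 101 and 64.6 before limitation in the uncontrolled culture, and 30.2 and 30.4 after and 285 and 275 before it in the controlled culture. It fell in both, by log2 -0.92 ± 0.23 (adjusted p = 0.0094) and -3.17 ± 0.05 (adjusted p = 5.6e-08), and the first of these calls missed the test without pO2-UN-3 replicate 2 (adjusted p = 0.051). The response difference of this gene was 2.25 ± 0.27, that of YALI0_E34155g 2.36 ± 0.17, that of YALI0_E21109g 3.75 ± 0.26 and that of YALI0_F05390g 2.21 ± 0.21. Of the class, 6 of the 10 genes tested had a positive response difference past the test (38.1% of all genes). YALI0_C12056g, another endo-1,3(4)-beta-glucanase, and YALI0_E13970g, which a weak hit gave the different KO name endoglucanase, were the other 2 of them (log2 1.61 and 0.73). YALI0_F13299g stayed under 8 FPKM, YALI0_A07142g under 1.3 FPKM, and YALI0_B00418g, listed in 1 table only, under 1 FPKM.

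**Figure D4:**
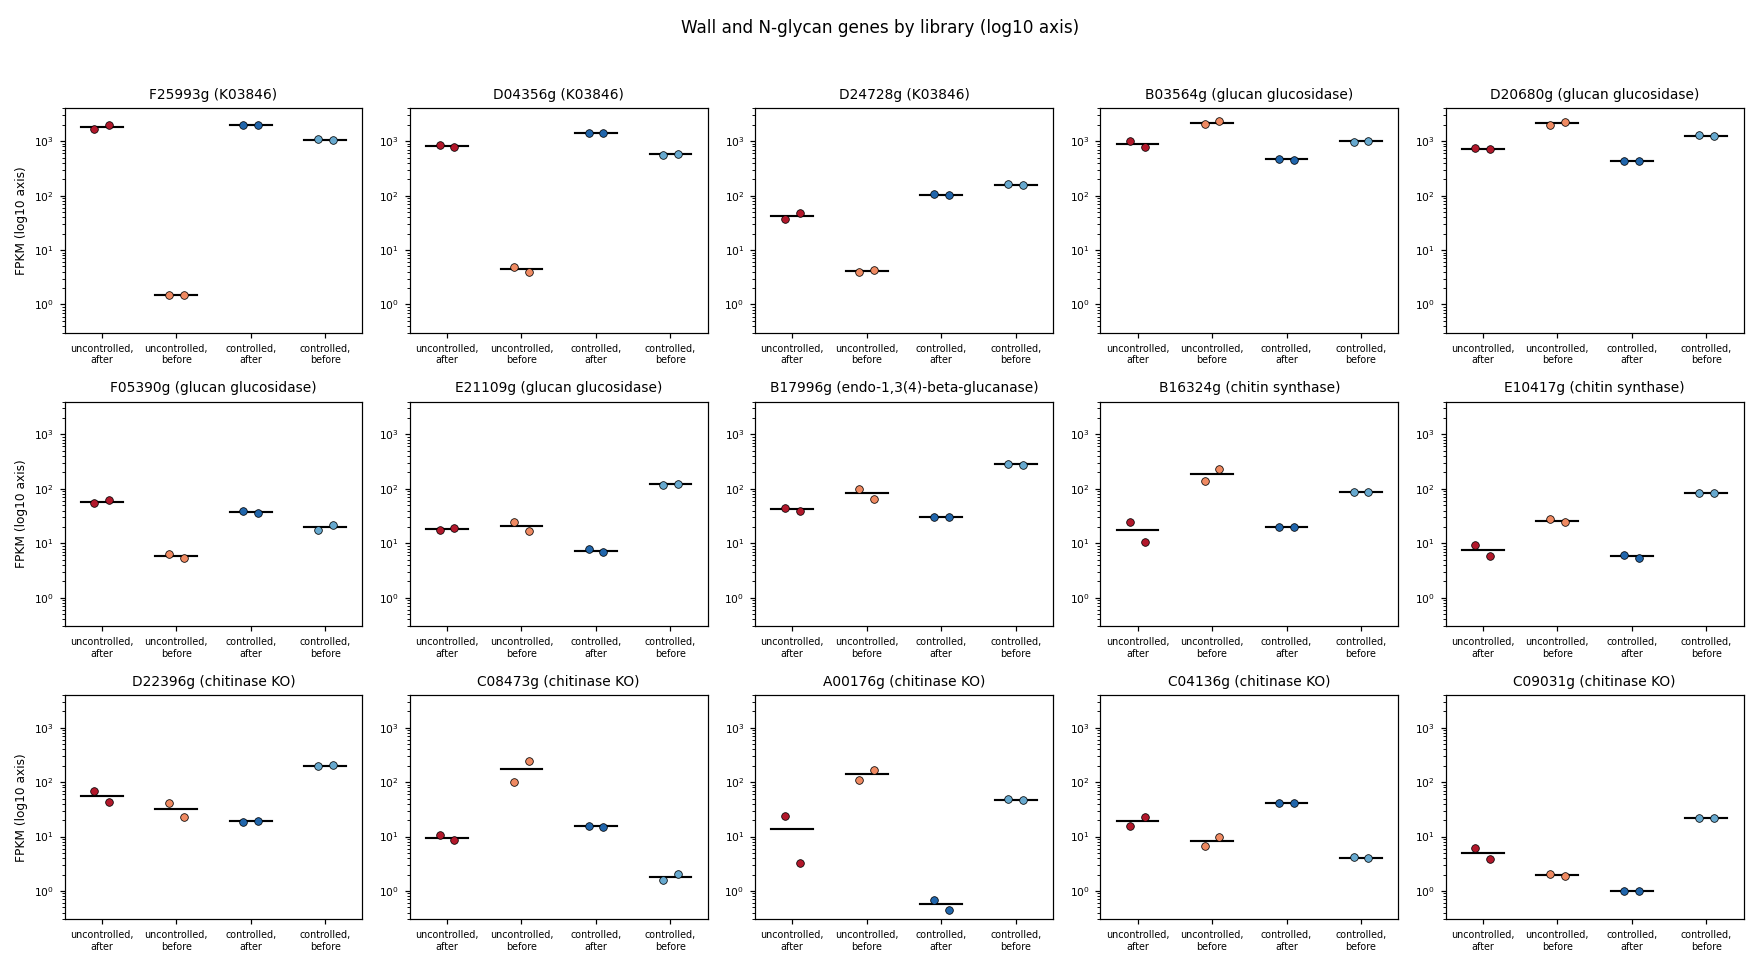
FPKM by library for 15 genes of the N-glycan core, glucan, chitin and chitinase classes, on a log10 axis shared by all panels; tags are without the prefix YALI0_. Points are libraries and lines the mean of 2 libraries. YALI0_F25993g and YALI0_D04356g drop to between 1.49 and 4.91 FPKM in the uncontrolled culture before limitation, where the glucosidases YALI0_B03564g and YALI0_D20680g reach 1994 to 2330 FPKM.

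More chitin genes fell than rose after limitation in both cultures. Of 8 genes, 7 encode chitin synthases and 1 a chitin deacetylase, which turns chitin to chitosan. In the uncontrolled culture 4 fell and 1 rose, and in the controlled culture 6 fell and 1 rose. The class summed to 198 ± 41.7 FPKM after and 481 ± 121 before limitation in the uncontrolled culture, and to 201 ± 2.76 after and 424 ± 4.24 before it in the controlled culture (SD, n = 2 each). YALI0_B16324g, the most abundant synthase, had 25.1 and 10.6 FPKM after and 140 and 233 before limitation in the uncontrolled culture, and 20.2 and 20.1 after and 88.5 and 88.9 before it in the controlled culture.

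YALI0_B16324g was called lower in both cultures (log2 -3.39 ± 0.40, adjusted p = 0.00025, and -2.08 ± 0.06, adjusted p = 7.7e-07), and its response difference was -1.30 ± 0.51 (adjusted p = 0.052), which passed under median-of-ratios scaling (-1.55, adjusted p = 0.034). YALI0_E10417g, whose first hit was the entry of the synthase YALI0_E22198g, fell by log2 -1.69 ± 0.26 in the uncontrolled and by -3.66 ± 0.09 in the controlled culture. It had 9.21 and 5.87 FPKM after and 27.4 and 24.6 before limitation in the uncontrolled culture, and 6.08 and 5.45 after and 84.8 and 84.3 before it in the controlled culture. YALI0_E22198g itself had 31.4 and 28.8 FPKM after and 25.3 and 24.5 before limitation in the controlled culture and rose slightly there (log2 0.26 ± 0.08, adjusted p = 0.027; 0.23 under median-of-ratios scaling), so the 2 similar genes did not move together.

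YALI0_C24354g, the second most abundant synthase, fell by log2 -0.89 ± 0.21 in the uncontrolled and -0.91 ± 0.07 in the controlled culture, with a response difference of 0.02 ± 0.25 (adjusted p = 0.96). Its fall in the uncontrolled culture missed the test without pO2-UN-3 replicate 2 (adjusted p = 0.054). The deacetylase YALI0_F30833g ran against the synthases: it had 25.1 and 16.2 FPKM after and 9.21 and 8.39 before limitation in the uncontrolled culture and rose there (log2 1.11 ± 0.26, adjusted p = 0.0072), while in the controlled culture it had 16.9 and 17.1 after and 12.1 and 15.4 before limitation (adjusted p = 0.089). After limitation 1 synthase, YALI0_E22198g, differed between the cultures past the test (log2 -0.59 ± 0.14).

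The 11 genes annotated as chitinase, enzymes that loosen chitin as cells separate, went in all directions. In the uncontrolled culture 4 rose and 3 fell of 10 tested, and in the controlled culture 6 rose and 5 fell of 11. Only 3 hit their own Y. lipolytica entry: YALI0_D22396g, YALI0_F04532g and YALI0_A01870g. YALI0_D22396g had 68.6 and 43.6 FPKM after and 40.7 and 22.7 before limitation in the uncontrolled culture, and 18.4 and 19.6 after and 196 and 206 before it in the controlled culture. It fell by log2 -3.34 ± 0.06 in the controlled culture (adjusted p = 1.2e-07), and its response difference was 4.16 ± 0.40 (adjusted p = 4.8e-05). Its log2 value in the uncontrolled culture, 0.825, did not pass the limma test. That value passed with the replicate block (adjusted p = 0.0049), with the filter at 5 FPKM (adjusted p = 0.045) and in the fit of all 8 libraries (adjusted p = 0.026).

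YALI0_F04532g fell in both cultures (log2 -0.85 ± 0.28 and -1.20 ± 0.14). YALI0_A01870g was at the limit of detection, with 1.98 and 0.98 FPKM after and 0.40 and 0.59 before limitation in the uncontrolled culture. The libraries from before limitation were at or below 0.598 FPKM, the level that 3 fragments in a library give for this gene. The mean level after limitation was 2.47 times that floor, resting on about 10 and 5 fragments. The gene did not reach 1 FPKM in 2 libraries of this culture, so its change there was not tested. In the controlled culture it rose, with 2.51 and 2.50 FPKM after and 0.76 and 0.57 before limitation (log2 1.08 ± 0.22, adjusted p = 0.0046).

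The weakly annotated genes held the extremes of the class. YALI0_C08473g had 10.5 and 8.51 FPKM after and 101 and 242 before limitation in the uncontrolled culture, and 15.8 and 15.2 after and 1.59 and 2.01 before it in the controlled culture. It fell in one culture (log2 -3.92 ± 0.38, adjusted p = 0.0001) and rose in the other (log2 2.56 ± 0.16, adjusted p = 1.7e-05), and its response difference of -6.48 ± 0.50 (adjusted p = 1.5e-05) was the only called one with a negative sign. The replicates of its highest group differed by log2 1.25, and no other group came near them.

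YALI0_A00176g had 24.1 and 3.29 FPKM after and 110 and 168 before limitation in the uncontrolled culture, and 0.68 and 0.45 after and 48.7 and 47.0 before it in the controlled culture. It was called lower after limitation in both cultures (log2 -3.72 ± 0.71, adjusted p = 0.0026, and -4.97 ± 0.14, adjusted p = 6.6e-07). Its 2 libraries of pO2-UN-3 differed by log2 2.55, the widest gap between replicates of any of the genes, and it was the 1 gene called between the cultures after limitation (log2 2.73 ± 0.82, adjusted p = 0.04). That call was lost without pO2-2 replicate 1 (log2 2.84, adjusted p = 0.07) or pO2-2 replicate 2 (log2 2.63, adjusted p = 0.088). With either pO2-UN-3 library left out the gene fell under the filter on low values and was not tested. Its plain difference between the cultures was then log2 1.46 without pO2-UN-3 replicate 1, the library with 24.1 FPKM, and log2 4.01 without replicate 2. The estimate of its response difference was -0.03 without pO2-UN-3 replicate 1 and 2.52 without pO2-UN-3 replicate 2.

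YALI0_C04136g and YALI0_C09031g moved in opposite directions under oxygen control. YALI0_C04136g had 15.6 and 22.8 FPKM after and 6.60 and 9.99 before limitation in the uncontrolled culture, and 41.8 and 42.2 after and 4.19 and 4.02 before it in the controlled culture, where it rose by log2 3.08 ± 0.10 (adjusted p = 1.2e-06). YALI0_C09031g had 6.13 and 3.89 FPKM after and 2.05 and 1.89 before limitation in the uncontrolled culture, and 1.00 and 0.99 after and 21.8 and 21.5 before it in the controlled culture, where it fell by log2 -3.50 ± 0.14 (adjusted p = 2.7e-06). The response difference of YALI0_C09031g was 4.50 ± 0.31 (adjusted p = 8.5e-06). The rises of both genes in the uncontrolled culture (log2 1.12 ± 0.29 and 0.99 ± 0.30) missed the test under median-of-ratios scaling (adjusted p = 0.051 and 0.077). They also missed it without pO2-UN-3 replicate 2 for YALI0_C04136g (adjusted p = 0.068) and without pO2-UN-3 replicate 1 for YALI0_C09031g (adjusted p = 0.18), among other libraries.

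The second most abundant gene with a chitinase name, YALI0_F24541g, was steady by comparison, with 53.5 and 56.7 FPKM after and 31.2 and 32.0 before limitation in the uncontrolled culture, and 67.8 and 67.3 after and 51.0 and 54.6 before it in the controlled culture. It rose in both (log2 0.78 ± 0.17 and 0.35 ± 0.06), the rise in the uncontrolled culture missing the test under median-of-ratios scaling (log2 0.40, adjusted p = 0.056). YALI0_E16731g, YALI0_D02299g and YALI0_A17776g did not exceed 57.0 FPKM in any library, but all passed the test in the controlled culture. There YALI0_E16731g fell from a mean of 56.9 FPKM before limitation to 25.6 after it. YALI0_D02299g rose from 5.23 to 15.9 FPKM and YALI0_A17776g from 8.0 to 24.1 FPKM. In the uncontrolled culture YALI0_A17776g rose, and YALI0_E16731g and YALI0_D02299g did not pass the test.

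The wall integrity class held 2 genes of the WSC type, plasma membrane sensors that signal wall stress in S. cerevisiae. YALI0_A16214g had 121 and 94.2 FPKM after and 144 and 206 before limitation in the uncontrolled culture, and 147 and 146 after and 129 and 133 before it in the controlled culture. It fell in the uncontrolled culture (log2 -0.68 ± 0.21, adjusted p = 0.023) and rose slightly in the controlled culture (log2 0.16 ± 0.04, adjusted p = 0.01); the rise did not pass under median-of-ratios scaling (log2 0.01, adjusted p = 0.78), and the fall missed the test without pO2-UN-3 replicate 2 or pO2-UN-2 replicate 2 (adjusted p = 0.15 and 0.1). YALI0_F04213g had 89.6 and 47.6 FPKM after and 138 and 169 before limitation in the uncontrolled culture, and 18.2 and 23.2 after and 64.0 and 67.7 before it in the controlled culture.

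YALI0_F04213g fell in both cultures (log2 -1.21 ± 0.29 and -1.63 ± 0.12) and was higher in the uncontrolled culture in either phase, by log2 1.62 ± 0.31 after limitation (adjusted p = 0.01) and 1.20 ± 0.13 before it (adjusted p = 0.00088). Of 6 genes for kinases downstream of such sensors, 1 rose and 1 fell in the uncontrolled culture and 3 rose and 2 fell in the controlled culture, with log2 values between -1.19 and 1.10. Of 21 genes for the GPI anchor, which tethers mannoproteins to the wall, 7 rose and 4 fell in the uncontrolled culture (33.3% and 19.0%). In the controlled culture 6 of them rose and 10 fell (28.6% and 47.6%). Of all genes 48.9% rose and 21.5% fell in the uncontrolled culture, and 45.6% rose and 36.0% fell in the controlled culture. The balance of both lists, like that of all genes, depended on scaling. Under median-of-ratios scaling 5 GPI genes rose and 12 fell in the uncontrolled culture (2199 and 1904 of all genes). With it 6 rose and 13 fell in the controlled culture (2460 and 2570 of all genes). Of the signalling genes 1 rose and 2 fell in the uncontrolled culture under that scaling, and 0 rose (3 without scaling) and 2 fell in the controlled culture. Among the GPI genes, YALI0_E26279g, annotated from a weak hit as the class A subunit of the first step, had 86.6 and 108 FPKM after and 1.91 and 1.89 before limitation in the uncontrolled culture, and 132 and 126 after and 7.93 and 7.57 before it in the controlled culture.

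The glycogen branching enzyme YALI0_C06798g, the gene that does not belong to the wall, had 124 and 153 FPKM after and 455 and 424 before limitation in the uncontrolled culture, and 145 and 141 after and 380 and 387 before it in the controlled culture. It fell by log2 -1.67 ± 0.15 and -1.42 ± 0.03, with adjusted p of 7.4e-05 and 3.4e-07, and its response difference was -0.25 ± 0.15 (adjusted p = 0.18), which passed under median-of-ratios scaling (-0.49, adjusted p = 0.011).

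Set side by side, the 2 cultures share no library in their responses to limitation. Of the 59 genes, 13 fell in both, 10 rose in both, 13 rose in the uncontrolled and fell in the controlled culture, and 2 fell in the uncontrolled and rose in the controlled culture. Of the 55 tested in both these were 23.6%, 18.2%, 23.6% and 3.64%, against 12%, 28.4%, 13% and 5.84% of the 6145 genes tested in both. Under median-of-ratios scaling the counts were 16, 6, 7 and 2 (29.1%, 10.9%, 12.7% and 3.64%, against 17.9%, 20%, 10.4% and 7.52% of all genes), the shares of genes that rose in the uncontrolled and fell in the controlled culture being 12.7% and 10.4%. The 6 that no longer rose in the uncontrolled culture were YALI0_E05929g, YALI0_B05500g, YALI0_C09031g, YALI0_E34155g, YALI0_D08558g and YALI0_C02475g, and YALI0_E31797g, YALI0_E34133g, YALI0_F24541g and YALI0_C04136g left the group that rose in both. Without scaling, the 13 that fell in both held 4 chitin synthases, 3 glucan hydrolases, 2 chitinases, a Golgi mannosyltransferase, a glucan synthase, a sensor and the glycogen enzyme. The 13 that rose in one and fell in the other held all 4 tested Pmt genes, all 3 dolichol phosphate mannose genes, 3 N-glycan genes, 2 glucan hydrolases and 1 chitinase. Of the 56 genes compared across the groups by mean level, 13 were highest and 27 lowest in the uncontrolled culture before limitation, whereas 27 were highest and 5 lowest in the controlled culture before limitation. As shares, 23.2% were highest and 48.2% lowest in the uncontrolled culture before limitation (22.0% and 46.5% of all genes at this level), close to the background. In the controlled culture before limitation 48.2% were highest and 8.93% lowest (29.5% and 26.3% of all genes).

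**Figure D5:**
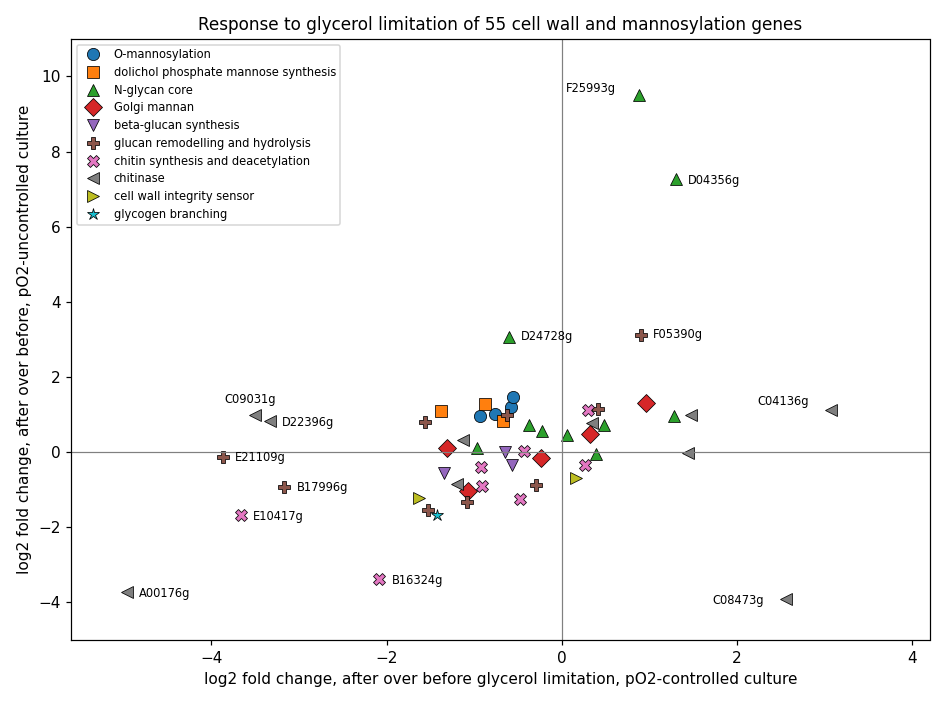
Log2 fold change after over before glycerol limitation of 55 genes in the pO2-uncontrolled culture (vertical axis) against the pO2-controlled culture (horizontal axis), with symbols for the classes and tags without the prefix YALI0_ for the genes farthest from 0. The O-mannosylation and dolichol phosphate mannose genes cluster at positive vertical and negative horizontal values (0.83 to 1.48 and -0.55 to -1.37), and YALI0_C08473g alone lies far out in the opposite corner.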

How the data were processed

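RNA-seq data came from 8 libraries of 4 groups, with 2 libraries each. After quality control with FastQC the authors aligned read pairs by TopHat2 on the CLIB122 genome and computed FPKM with Cufflinks, whose versions are not given in the sources used here; the FPKM were used as deposited, in 1 table per culture. A gene missing from 1 table was taken as 0 there. No further columns of sample values were left unused.

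Fold changes were computed with limma 3.58.1 (R 4.3.3; empirical Bayes with a mean-variance trend) on log2(FPKM + 1), after dropping genes that did not reach 1 FPKM in 2 or more of the fitted libraries. Each pair of groups was fitted on its own 4 libraries, and the difference of the responses as an interaction over all 8. P-values were adjusted by the Benjamini-Hochberg method over all genes tested (0.05), and a gene was called when its absolute log2 fold change was also at least 2. The steps were tested on simulated data. Depth was estimated from the spacing of low FPKM values, of which 92.2% to 96.2% fell within 0.1 of a whole number of fragments.

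Members were found by the name of the first KO hit and put in classes by KO number, because KO names alone do not separate the N-glycan genes from the others. The members and lists were chosen with earlier results of these data known. Named were the genes called in any comparison, the 2 most abundant of each class, all genes of classes of up to 3, and others where a count needed them; of the pathway lists, genes that were called or most abundant. Pseudocount, filter, scaling, replicate block, thresholds, a common fit and single left-out libraries were varied. Sequences were not used here.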

Additional observations from a re-analysis of the deposited data

Results flagged for a closer look

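In 13 of the genes the response to glycerol limitation differed between the cultures by the limma interaction test with a log2 difference of at least 2, which was the reason for listing them. In the N-glycan class the difference, uncontrolled minus controlled, was 8.62 for YALI0_F25993g, 5.96 for YALI0_D04356g and 3.68 for YALI0_D24728g. All of these carry the ALG9 KO number without hitting the Y. lipolytica entry of that name. In the mannosylation route it was 2.03 for the protein mannosyltransferase YALI0_E15081g, 2.47 for the dolichol phosphate mannose synthase YALI0_D06281g and 2.17 for its subunit YALI0_A18656g.

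Among the glucan hydrolases it was 3.75 for YALI0_E21109g, 2.36 for YALI0_E34155g, 2.25 for YALI0_B17996g and 2.21 for YALI0_F05390g. Among the genes annotated as chitinase it was 4.50 for YALI0_C09031g, 4.16 for YALI0_D22396g and -6.48 for YALI0_C08473g. Groups of 2 libraries were too small for a search for single outlying libraries.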

How the results depend on the processing

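Culture, deposited table and oxygen control cannot be told apart, each group holds 2 libraries, and depth is known only as an estimate. The replicate numbers are shared as numbers only: the deviations of same-numbered libraries correlated at -0.047 to 0.039. With the replicate block 40 genes passed the test in the uncontrolled response, 51 in the controlled response, 43 between the cultures before limitation, 28 after it and 32 in the difference of the responses, against 40, 50, 43, 29 and 34 without it.

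A log2 threshold of 1 in place of 2 gave 23 genes called in the uncontrolled response, 25 in the controlled response, 30 between the cultures before limitation, 8 after it and 25 in the difference of the responses, against 7, 9, 12, 1 and 13. After limitation 18 genes differed between the cultures at an adjusted p under 0.01, and 12 to 40 with a library left out, against 29. The 1 gene called there became 2 at a pseudocount of 0.1. It became 0 by limma when the filter was raised to 5 FPKM, which YALI0_A00176g did not pass. There 0 genes also had an unadjusted p under 0.05 with a log2 of at least 2. At an adjusted p under 0.01 it became 0, against 1 at an unadjusted p under 0.05 with that log2 threshold. The call also depended on single libraries. Without pO2-UN-3 replicate 2, YALI0_F04213g reached log2 2.07 and YALI0_A00176g was not tested.

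The 165 values compared were those of the 33 genes that the naming rule took by call, abundance or small class, in 5 comparisons. Other genes in the text were not among them. Median-of-ratios scaling left 135 values with the same sign and the same side of the test, while 9 passed newly and 11 no longer passed. These counts do not cover every value and do not follow the fold threshold of a call. YALI0_C23364g lost its call before limitation, and YALI0_C06798g gained one in the uncontrolled response (log2 -2.06). Scaling changed the sign of 9 values, none of which had passed the test. Before limitation the values that changed sign were YALI0_A13585g (0.20), YALI0_E21021g (0.13) and YALI0_F25817g (0.16). After limitation they were YALI0_A13585g (0.007), YALI0_C06798g (0.073) and YALI0_F25993g (0.002), and for the difference of the responses YALI0_A13585g (-0.19), YALI0_B20570g (-0.017) and YALI0_C24354g (-0.23). A pseudocount of 0.1 changed the sign of YALI0_C01411g in the uncontrolled response (0.022).

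Leaving out a library changed the sign of 13 values, none of which had passed the test. These ranged from -0.249 to 0.024 for YALI0_C01411g and from -0.393 to 0.14 for YALI0_E21109g in the uncontrolled response, and from -0.067 to 0.139 for YALI0_B20570g before limitation. After limitation the ranges were -0.061 to 0.357 for YALI0_B05500g, -0.866 to 0.30 for YALI0_B16324g, -0.007 to 0.225 for YALI0_C01411g, -0.203 to 0.096 for YALI0_C06798g and -0.138 to 0.224 for YALI0_D06281g. For the difference of the responses they were -0.029 to 2.52 for YALI0_A00176g, -0.018 to 0.11 for YALI0_A13585g, -0.199 to 0.229 for YALI0_C24354g, -0.085 to 0.082 for YALI0_D20680g and -0.03 to 0.871 for YALI0_F04213g. The cause of these changes was not tested.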
